A study of Arabidopsis thaliana with 28 samples.

Results

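The families described here are the LINEs and SINEs of Arabidopsis thaliana, the retroelements without long terminal repeats, in the topoisomerase VI mutant caa39. Members were the listed families whose class or superfamily name contains LINE or SINE or is L1, together with names that begin with ATLINE or ATSINE and the entry RathE2_cons. The rule took 6 of the 83 named families: ATLINE2, ATLINEIII, ATLINE1_6 and TA11, all entered as L1 LINEs, ATSINE2A, entered as a SINE, and RathE2_cons, to which the table gives no class. RathE2 is known as a SINE, and it is grouped with ATSINE2A on that knowledge. RNA came from the aerial parts of 6 day-old seedlings, with 3 libraries of caa39 and 3 of wild-type Col-0, described by the series as biological replicates. Both groups were grown alike on half-strength MS medium after 3 days of cold in the dark, with no treatment, and the number of seedlings behind each RNA library is not stated in the labels.

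A LINE encodes a reverse transcriptase and an endonuclease and copies itself by reverse transcribing its own RNA at the site of insertion. A SINE is short, encodes no protein and is copied by the enzymes of LINEs. Plants hold most such elements silent through DNA methylation and H3K9me2. Topoisomerase VI passes a DNA duplex through a double-strand break in another and in plants is needed for endoreduplication, the repeated copying of the genome without division. Each value is given per family and not per copy, so it has no single place in the genome. No family sequence is shown because no sequence source for these families was used here.

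Values are normalised reads, that is, whole reads per library divided by a size factor. The deposited table gives only group means, and the reads of each library were solved from these means. The letters a, b and c order the libraries of a genotype by size factor, and they are neither replicate numbers nor pairs between genotypes. Over the 84 entries of the table the libraries held 20791 to 31566 reads in caa39 and 22924 to 26678 in the wild type. Each read counted as 0.732 to 1.09 normalised reads in caa39 and as 1.06 to 1.22 in the wild type. Families differ in length and copy number, for which reads were not corrected, so read totals of different families do not rank them by activity.

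The first comparison asked how the LINE and SINE families differed between caa39 and the wild type. Among LINEs, ATLINE2, ATLINEIII and ATLINE1_6 fell in caa39 and TA11 rose, and among SINEs ATSINE2A fell and RathE2_cons rose. At an adjusted p below 0.05, 4 of the 6 were lower and 2 were higher in caa39 by the authors' deposited table, which has 51.8% of its 83 named families lower and 48.2% higher. At an adjusted p below 0.01 there were 5 of the 6 left, beside 74.7% of the 83, again by the authors' deposited table. In all 6 families the caa39 and wild-type libraries did not overlap, which held for 98.8% of the 83. The table lists only families that passed this threshold, so it cannot show how many other LINE or SINE families were measured and did not pass. The ratios of adjusted to raw p implied 23918 tests, of which at least 35.7% passed. That number gave whole ranks for 74 of the 84 entries. What was tested beyond the listed entries is not given, so 35.7% is no background for LINE or SINE families. By the authors' deposited table the log2 fold change had a median of −0.46 over the 6 families and −0.86 over the 4 LINEs, beside −0.35 over all 83. The 83 listed folds leave a gap from −0.28 (ATCOPIA4) to 0.38 (TA11). The median over the 83 lies near the edge of that gap and is not a typical shift. At least 2-fold changes, also by the authors' deposited table, were found for 2 of the 6 downward (25.3% of the 83 listed) and for 1 upward (36.1%).

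ATLINE2 showed the lowest fold of the 6. It held 335, 342 and 379 normalised reads in caa39 libraries a, b and c, against 866, 904 and 852 in wild-type libraries a, b and c. The highest caa39 library stood far below the lowest wild-type library. The means were 352 ± 23.4 in caa39 and 874 ± 27.03 in the wild type (SD, n = 3 each). By the authors' deposited table ATLINE2 stood at 0.402 of the wild type (adjusted p = 7.55e-31). It ranked 5 of the 83 families by adjusted p, but 16 by the size of the fall. The coefficient of variation was 6.64% in caa39, where read counting alone gives 5.01%. In the wild type it was 3.09%, where counting gives 3.62%. Wild-type library constants were chosen among 10 sets for the smallest spread between libraries, so wild-type spreads, here and in the other families, are not independent of that choice.

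ATLINEIII held 113, 99.2 and 96.3 normalised reads in caa39, against 255, 241 and 191 in the wild type. Every caa39 library was below every wild-type library, and wild-type library c was the lowest of its group. The means were 103 ± 8.79 in caa39 and 229 ± 33.9 in the wild type (SD, n = 3 each). ATLINEIII was at 0.449 of the wild type by the authors' deposited table (adjusted p = 4.72e-09). Its caa39 libraries varied by 8.55%, where counting gives 9.28%. Its wild-type libraries varied by 14.8%, where counting gives 7.06%, the widest spread of the 4 LINEs in either genotype.

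ATLINE1_6 fell less. It held 462, 477 and 437 normalised reads in caa39, against 637, 678 and 712 in the wild type. Again the genotypes did not overlap. The means were 459 ± 20.5 in caa39 and 676 ± 37.7 in the wild type (SD, n = 3 each). The authors' deposited table placed it at 0.678 of the wild type (adjusted p = 4.44e-06).

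TA11, a LINE family of Arabidopsis, was the exception among LINEs. Its libraries held 249.7, 222 and 248 normalised reads in caa39, against 198, 165 and 192 in the wild type. All caa39 libraries were above all wild-type libraries, but caa39 library b lay only a little above wild-type library a. The means were 240.2 ± 15.4 in caa39 and 185 ± 17.8 in the wild type (SD, n = 3 each). By the authors' deposited table TA11 was 1.30-fold higher (adjusted p = 0.0452), close to the threshold. In limma, run on the solved reads of all 83 families, its log2 fold change of 0.38 ± 0.11 (SE) had an adjusted p of 0.0178. That value was 0.35 without caa39 library a (limma adjusted p = 0.0535) and 0.35 if library c was left out instead (limma adjusted p = 0.0520), so the call was lost without either.

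**Figure D1:**
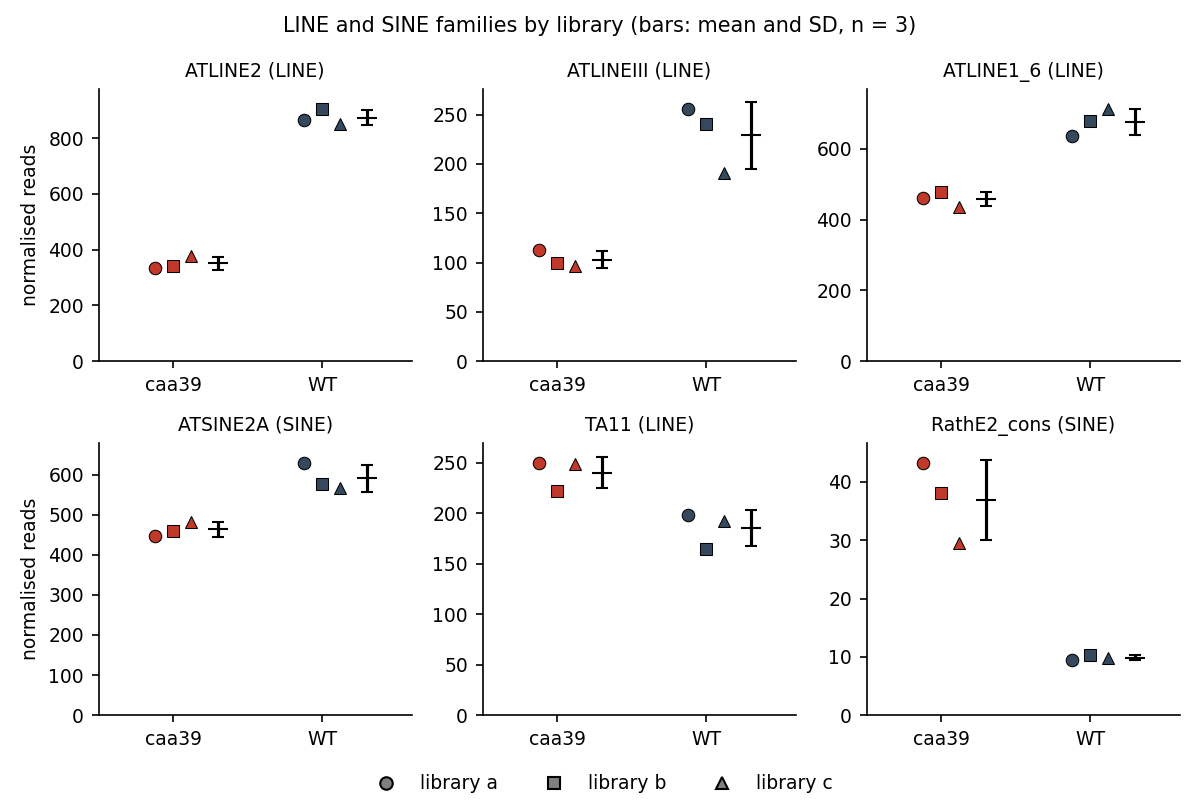
Normalised reads of each family (y axis, from 0) in the 3 caa39 libraries and the 3 wild-type (WT) libraries, with mean and SD beside them; circles, squares and triangles are libraries a, b and c of each genotype, which are not paired. In every panel the genotypes are separate, with caa39 lower for ATLINE2, ATLINEIII, ATLINE1_6 and ATSINE2A and higher for TA11 and RathE2_cons.

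The SINE families moved in opposite directions. ATSINE2A held 447, 460 and 483 normalised reads in caa39, against 629, 576 and 568 in the wild type. The genotypes did not overlap, with the highest caa39 library below the lowest wild-type one. The means were 463 ± 17.8 in caa39 and 591 ± 33.0 in the wild type (SD, n = 3 each). By the authors' deposited table it was at 0.784 of the wild type (adjusted p = 0.00513), and its log2 fold change of −0.35 was the median of the 83 families.

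RathE2_cons had few reads: 59, 46 and 27 in caa39, against 9, 9 and 8 in the wild type. In normalised reads these were 43.2, 38.0 and 29.5 in caa39, against 9.54, 10.4 and 9.72 in the wild type. The lowest caa39 library was well above all wild-type libraries, while the caa39 libraries differed among themselves by 18.7%, where counting alone gives 15.5%. The means were 36.9 ± 6.90 in caa39 and 9.88 ± 0.43 in the wild type (SD, n = 3 each). The wild-type spread of 4.40% was below the 34.0% that counting gives at so few reads, so that SD understates the error. By the authors' deposited table RathE2_cons was 3.74-fold higher (adjusted p = 0.000129). Pooled over libraries, 132 reads in caa39 and 26 in the wild type gave a ratio of 3.83 with an exact 95% interval of 2.50 to 6.08, which covers counting error only.

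Reads of related copies may be shared between families, and the mRNA kit selects polyadenylated RNA. Whether the reads of a family came from its own transcripts or from copies lying within transcribed genes was not tested.

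The plot of fold change against level sets the 6 families among the others. For each member the 2 named families with the nearest overall mean were taken from those outside the 6 members. They were 9 distinct families, 5 lower and 4 higher in caa39, so the direction varied among families of like read number. ATLINE2 lay between VANDAL20, a MuDR DNA transposon family with a log2 fold change of 2.98, and ATMU10, also MuDR, with −0.64, both in the authors' deposited table. Outside the members, VANDAL20 and VANDAL12, another MuDR family at −0.56 by the authors' deposited table, were nearest to both ATLINE1_6 and ATSINE2A. With overall means of 567, 527 and 613 normalised reads, ATLINE1_6, ATSINE2A and ATLINE2 also lay near each other, and all were lower in caa39. ATLINEIII was nearest to the Helitron ATREP3 at −0.42 and the hAT family TAG2 at −1.03 in the authors' deposited table. TA11 lay next to ATCOPIA75 at 0.47 and the MuDR family ATDNA1T9A at −1.48 in the authors' deposited table. RathE2_cons lay next to the En-Spm families ATENSPM9 and ATENSPM6, at 2.44 and 2.25 in the authors' deposited table.

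**Figure D2:**
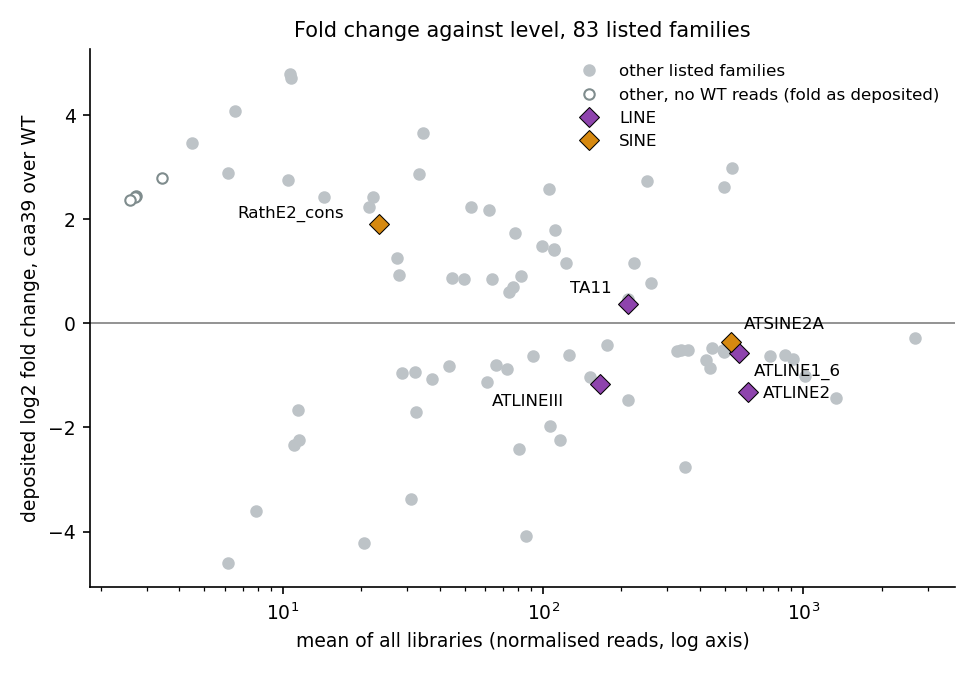
Log2 fold change of caa39 over the wild type (y axis, as deposited) against the mean of all libraries in normalised reads (x axis, log scale) for the 83 named families; diamonds are LINEs and SINEs, grey circles other families, and open circles the 4 families with no wild-type reads, whose deposited folds are not measured folds. The 4 members below 0 are ATLINE2, ATLINEIII, ATLINE1_6 and ATSINE2A, and the 2 above 0 are TA11 and RathE2_cons at 0.38 and 1.90.

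The next comparison asked whether the 6 families differed from each other in their response. Within a library the ratio of a pair of families does not depend on how libraries are scaled. The wild-type reads behind it do depend on the set of constants that was taken. Of 15 pairs 13 had caa39 ratios that did not overlap the wild-type ratios, each with an exact permutation p of 0.1 (two-sided), the smallest that 3 against 3 allows, and 0.115 after adjustment over the 15. No pair could therefore pass 0.05. The libraries of each member did not overlap, so every pair of a fallen and a risen family had to separate. Only pairs that moved in the same direction could overlap. The share of separate pairs among all 83 families was not counted, so 13 of 15 has no background. TA11 over ATLINE2 was 0.745, 0.651 and 0.656 in caa39, against 0.229, 0.182 and 0.225 in the wild type. Its log2 difference was 1.69 ± 0.12 (SE, n = 3 each). ATLINE1_6 over ATLINE2 was 1.38, 1.40 and 1.15 in caa39, against 0.736, 0.750 and 0.836 in the wild type. ATLINE1_6 thus drew more reads than ATLINE2 in each caa39 library and fewer in each wild-type library.

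Ordered by fold, the families ran from ATLINE2 over ATLINEIII, ATLINE1_6, ATSINE2A and TA11 to RathE2_cons, and 3 of the 5 neighbouring pairs were separate. ATLINEIII over ATLINE2 was not, with 0.336, 0.291 and 0.254 in caa39 and 0.295, 0.266 and 0.224 in the wild type. The log2 difference of this pair was 0.17 ± 0.16 (SE, n = 3 each; exact permutation p = 0.5). ATSINE2A over ATLINE1_6 also overlapped, with 0.968, 0.964 and 1.11 in caa39 and 0.987, 0.849 and 0.797 in the wild type. That log2 difference was 0.21 ± 0.11 (SE, n = 3 each; exact permutation p = 0.3). The separate neighbours were ATLINE1_6 over ATLINEIII at 0.59 ± 0.18, TA11 over ATSINE2A at 0.73 ± 0.09 and RathE2_cons over TA11 at 1.51 ± 0.21, as log2 differences (SE, n = 3 each). Of these, TA11 over ATSINE2A had to separate, since TA11 rose and ATSINE2A fell. Few wild-type reads of RathE2_cons limit the last pair, and its SE understates the error.

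The make-up of the LINE reads differed between the genotypes as well. ATLINE2 supplied 28.9%, 29.9% and 32.6% of the summed LINE reads in caa39, against 44.3%, 45.5% and 43.8% in the wild type, a difference of −14.0 ± 1.22 percentage points (SE, n = 3 each). TA11 supplied 21.5%, 19.5% and 21.4% in caa39, against 10.1%, 8.29% and 9.86% in the wild type, a difference of 11.4 ± 0.87 points. These groups stood well apart. The share of ATLINE1_6 was 39.8 ± 2.10% in caa39 and 34.4 ± 2.03% in the wild type, and that of ATLINEIII 8.91 ± 0.73% in caa39 and 11.7 ± 1.67% in the wild type (SD, n = 3 each). All 4 shares had an exact permutation p of 0.1 (two-sided), also after adjustment over the 4. A share falls when others rise, so the 4 are not independent.

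**Figure D3:**
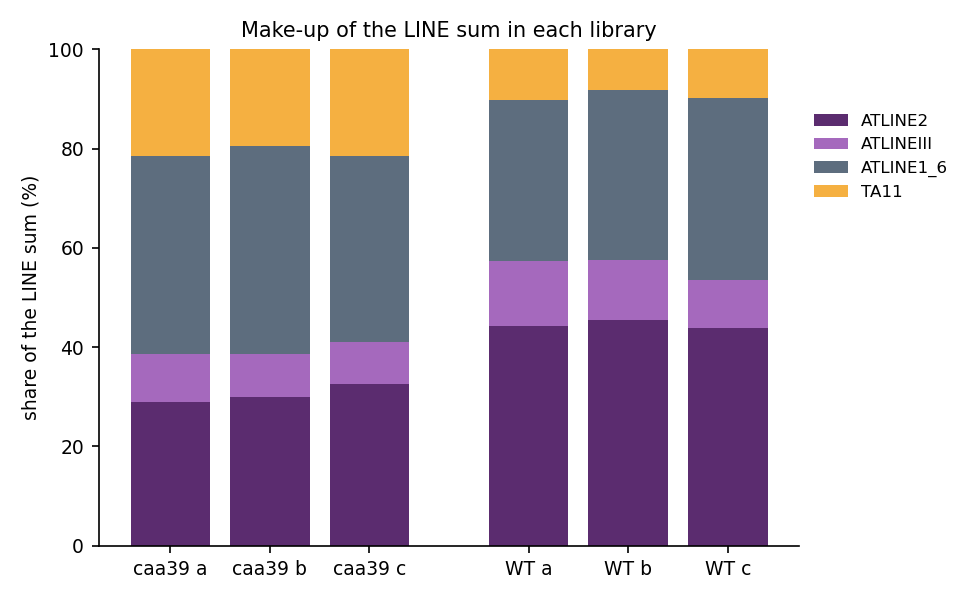
Share of the summed LINE reads (y axis, percent of normalised reads) supplied by each of the 4 families in each caa39 and wild-type (WT) library. The ATLINE2 segment covers 28.9% to 32.6% in caa39 and 43.8% to 45.5% in the wild type, and the TA11 segment 19.5% to 21.5% in caa39 and 8.29% to 10.1% in the wild type.

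The LINE sum itself was lower in caa39. It was 1160, 1140.3 and 1160 normalised reads in caa39, against 1957, 1988 and 1947 in the wild type, without overlap. The means were 1153 ± 11.3 in caa39 and 1964 ± 21.5 in the wild type (SD, n = 3 each), with a log2 ratio of −0.77 ± 0.01 (SE; exact permutation p = 0.1, two-sided). The families that fell lost 866 normalised reads between them, 60.3% of it from ATLINE2, 25.1% from ATLINE1_6 and 14.6% from ATLINEIII, while TA11 gained 55.2. Without ATLINE2 the sum was 802 ± 21.8 in caa39 and 1090 ± 5.65 in the wild type (SD, n = 3 each), a log2 ratio of −0.44 ± 0.02 (SE). With and without ATLINE2, the libraries of both genotypes differed by less than read counting alone gives. The SDs and SEs of the LINE sum therefore understate the error, and the wild-type constants were chosen for a small spread. The SINE sum was 500.2 ± 10.9 in caa39 and 601 ± 32.8 in the wild type (SD, n = 3 each), a log2 ratio of −0.26 ± 0.05 (SE; exact permutation p = 0.1, two-sided), and ATSINE2A made up most of it.

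Each fold depends on the scale on which libraries are compared. The summed normalised reads of all listed entries were lower in caa39 by 0.31 on the log2 scale. Scaling the libraries to their totals of listed reads raised the limma log2 fold changes of the 83 families by a median of 0.31. That scale sets the summed listed reads equal between libraries, so the rise follows from its construction. It is built from entries listed for differing between the genotypes. Which scale is right was not tested. On that scale ATLINE2, ATLINEIII and ATLINE1_6 remained lower, at −1.01 ± 0.09, −0.84 ± 0.14 and −0.25 ± 0.09 (SE; limma adjusted p = 0.000283, 0.00206 and 0.0433). TA11 stood at 0.69 ± 0.12 (SE; limma adjusted p = 0.00293) and RathE2_cons at 2.13 ± 0.15 (SE; limma adjusted p = 0.000154). The SE of RathE2_cons rests in part on a wild-type spread below counting error, so it understates the error. ATSINE2A stood at −0.042 ± 0.091 (SE; limma adjusted p = 0.681), so its fall was not detected on that scale. With the size factors limma called all 6 in the directions given above, 4 lower and 2 higher, beside 50.6% and 47.0% of the 83. On the listed-read scale it called 3 lower and 2 higher, beside 34.9% and 48.2% of the 83. The log2 ratio of the LINE sum was −0.46 on the listed-read scale, against −0.77 with the size factors (exact permutation p = 0.1 for each, two-sided). The SINE sum turned to 0.045, with overlapping libraries (exact permutation p = 0.5, two-sided).

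**Figure D4:**
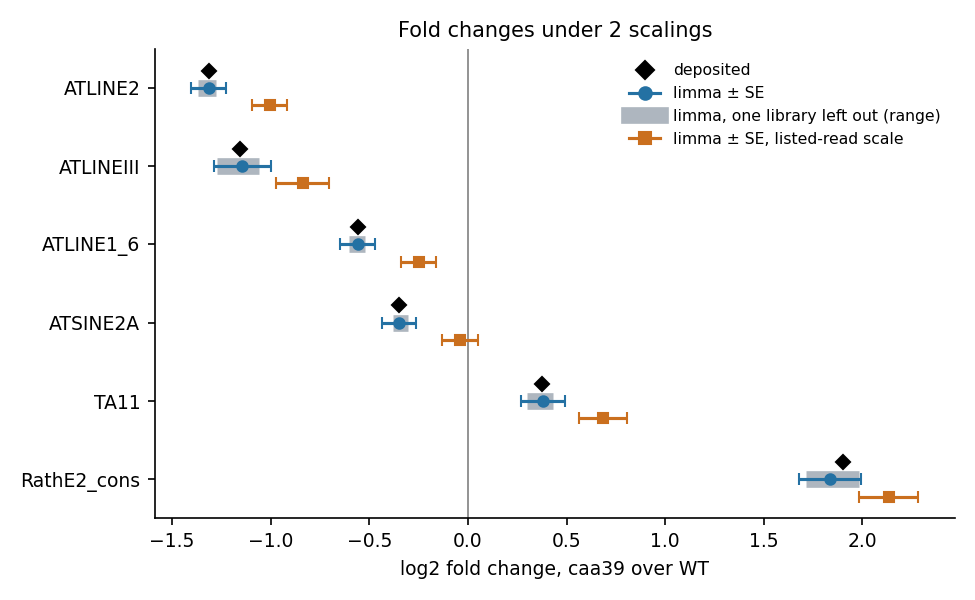
Log2 fold change of caa39 over the wild type (x axis) for each family as deposited (diamonds), in limma with the size factors (circles, SE), in limma with 1 library left out at a time (grey bars, range) and in limma on the scale of listed reads (squares, SE). The squares lie to the right of the circles, and that of ATSINE2A, at −0.042, lies by the line at 0.

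The last comparison asked whether LINE reads were lower by more than those of all named families and of Copia, Gypsy and Helitron families. Other groups of elements were not compared. The hAT families ATHAT10, TAG2 and ATHATN1 stood at 0.370, 0.491 and 0.618 of the wild type, and ATHATN3 at 3.32, by the authors' deposited table. ATHAT10 alone had means of 723 normalised reads in caa39 and 1952 in the wild type. Its wild-type libraries held 1462, 2953 and 1442, so library b raised that mean, against 682, 734 and 754 in caa39. The LINEs supplied 6.98%, 6.83% and 7.26% of the reads of the 83 named families in caa39, against 9.72%, 9.36% and 9.83% in the wild type, a difference of −2.61 ± 0.19 percentage points (SE; exact permutation p = 0.1, two-sided). Without ATLINE2 the difference was −0.60 ± 0.14 points (SE), with the libraries still separate. The SINEs supplied 3.05 ± 0.14% in caa39 and 2.95 ± 0.21% in the wild type (SD, n = 3 each), and their libraries overlapped (exact permutation p = 0.4).

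Against the 25 Copia families, retroelements with long terminal repeats, the LINE sum was 0.222, 0.215 and 0.234 in caa39 and 0.290, 0.302 and 0.297 in the wild type. The log2 difference was −0.41 ± 0.04 (SE; exact permutation p = 0.1, two-sided). Without ATLINE2 it was −0.08 ± 0.03 (SE), and the libraries were separate only narrowly. The highest caa39 ratio was then 0.158 and the lowest wild-type ratio 0.162. The LINE sum without ATLINE2 varied by less than read counting gives, so this SE understates the error as well. Against the 11 Gypsy families, the other large group with long terminal repeats, the ratio was 0.487, 0.502 and 0.527 in caa39 and 0.781, 0.718 and 0.791 in the wild type, a log2 difference of −0.60 ± 0.05 (SE; exact permutation p = 0.1, two-sided). It was −0.27 ± 0.06 (SE) without ATLINE2, and without ATLANTYS2, the Gypsy family with the most reads, −0.89 ± 0.05 (SE).

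Against the 14 Helitron families, rolling-circle DNA transposons, the LINE sum did not separate. The ratio was 0.585, 0.576 and 0.654 in caa39 and 0.645, 0.710 and 0.631 in the wild type, a log2 difference of −0.13 ± 0.08 (SE; exact permutation p = 0.3, two-sided). The direction rested on ATLINE2: without it the ratio was 0.420 ± 0.019 in caa39 and 0.367 ± 0.017 in the wild type (SD, n = 3 each), a log2 difference of 0.19 ± 0.05 (SE; exact permutation p = 0.1). The size of the difference depended on HELITRON1, the Helitron family with the most reads: without that family the caa39 libraries were separate and lower, with a log2 difference of −0.39 ± 0.11 (SE; exact permutation p = 0.1).

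**Figure D5:**
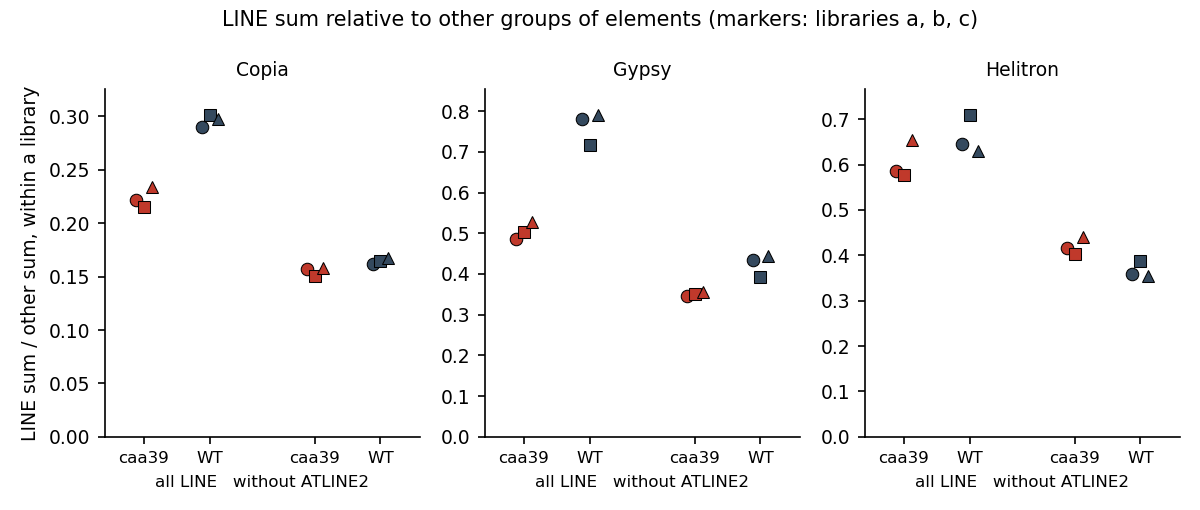
LINE sum divided by the Copia, Gypsy or Helitron sum within each library (y axis, ratio of normalised reads, from 0) in caa39 and the wild type (WT), with all 4 LINE families at left in each panel and without ATLINE2 at right; circles, squares and triangles are libraries a, b and c. The caa39 libraries lie below the wild-type libraries for Copia and Gypsy, while for Helitrons they overlap, and without ATLINE2 the Helitron ratios lie higher in caa39, at 0.404 to 0.441, than in the wild type, at 0.355 to 0.387.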

How the data were processed

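Stranded mRNA libraries were made from 6 day-old aerial parts, per the labels' protocols, and grouped by the genotype in their titles (3 caa39, 3 wild type). The chromatin and bisulfite samples are not used here. TAIR10, edgeR 1.12.0, Bowtie2 and FastQC 0.10.1 appear in the submitters' processing notes without their roles. The program behind the p-values, the counting and the handling of reads that match several copies: not given in the sources used here. Per the file headers, the deposited signal is a group mean of normalised counts. The deposited ratio (fold) divides the mean of caa39 by that of the wild type, the deposited log2 value is its logarithm, and the authors' deposited p-values are raw and adjusted.

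Each group mean adds up whole reads of 3 libraries, multiplied by 1 constant per library, except 4 wild-type means (ATCOPIA21, HELITRONY2, ATCOPIA38B and ATCOPIA79), which are listed as 1 while the overall mean leaves 0. These were set to 0 reads. All other means had exactly 1 solution in whole reads (relative tolerance 1e-14, absolute tolerance 2e-13), with size factors of 1.37, 1.21 and 0.914 in caa39 and 0.943, 0.868 and 0.823 in the wild type. For the wild type 10 sets of constants solved the means, and the set with the smallest spread was taken (median coefficient of variation 13.7%, next 19.4%), so a small wild-type spread was in part selected for. Separation of libraries, permutation tests and limma all rest on that set, and the other wild-type sets were not tried. For caa39 there was 1 set. With these sets the geometric mean over the 6 size factors was 1.00. Size factors were sought between 0.5 and 2. The solver and limma were tested on simulated data. The unassigned entry held 28.3% of listed reads and stayed out of tests. Listed reads are not the libraries' sequencing depth. Counting intervals cover counting error only.

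limma 3.58.1 (R 4.3.3) used log2 of the normalised count plus 0.5, with Benjamini-Hochberg adjustment over the 83 families, which were listed for passing a test on these libraries. Sums and ratios used exact permutation tests (scipy 1.17.1, Python 3.11.15), which cannot go below p = 0.1. All 6 members were named, and for each the 2 families nearest in overall mean among those outside the members. The members, groups and tests were chosen with earlier results of these data known. Alternatives were other thresholds, pseudocounts of 1 and 5, a minimum mean of 20, scaling to listed reads, leaving out the most abundant family and leaving out each library.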

Additional observations from a re-analysis of the deposited data

How the results depend on the processing

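Of 66 alternative limma values for the 6 families 63 kept direction and call, 3 lost the call and 0 changed direction. The libraries of each family are separate, so leaving out a library could not turn one. All 83 families were listed for passing a test on these libraries, and limma with the size factors called 50.6% lower and 47.0% higher. Keeping a call therefore does not set the members apart. Calls with a library left out were not counted over the 83. TA11 lost its call without caa39 library a or c (log2 fold changes 0.35 and 0.35), and ranged from 0.30 to 0.43 with a library left out. ATSINE2A lost it on the listed-read scale. With a minimum of 2-fold 3 of the 6 families remained past the threshold, fewer as a stricter limit constructs, with 5 at an adjusted p below 0.01 and 5 to 6 in limma with a library left out. The SINE sum turned to 0.045 on the listed-read scale, which adds about 0.31 to each log2 ratio. The LINE sum stood at −0.46 on that scale. The LINE sum against the Helitron sum turned to 0.19 without ATLINE2. The LINE share of named-family reads, a comparison added after the data were seen, kept its direction without ATLINE2, of all listed reads and with each library left out. No paired analysis was possible because only group means are listed, and libraries solved from them have no replicate number. Depth limits RathE2_cons most, with 26 wild-type reads in all.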
